A study of Homo sapiens with 12 samples.

Results

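The genes of the proteasome were followed in A375 cells, as the 48 genes, of 44659 in the count table, whose symbol is PSMA, PSMB, PSMC, PSMD, PSME, PSMF or PSMG followed by a number. The rule uses the symbol and no measured value. The set holds the 7 subunits of the alpha ring (PSMA1 to PSMA7) with the testis subunit PSMA8, the 7 constitutive beta subunits (PSMB1 to PSMB7), the 3 immunoproteasome beta subunits (PSMB8, PSMB9 and PSMB10), the thymus subunit PSMB11, the 6 ATPases (PSMC1 to PSMC6) and 11 non-ATPase subunits of the 19S cap, its 3 assembly chaperones (PSMD5, PSMD9 and PSMD10), the activators and the regulator PSMF1 (5 genes in all with PSME1 to PSME4), and the 4 chaperones of 20S assembly (PSMG1 to PSMG4).

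The proteasome degrades proteins that carry chains of ubiquitin. Its 20S core is a barrel in which outer alpha rings gate the entry and inner beta rings hold the proteolytic sites, while the 19S cap binds ubiquitin, removes it, unfolds the substrate with its ring of ATPases and feeds it into the core. Cells replace the catalytic beta subunits by the immunoproteasome subunits when antigen processing is induced, and adjust the supply of subunit mRNAs through the transcription factor encoded by NFE2L1.

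A375 is an established human melanoma cell line with a mutated BRAF kinase. In the MAPKi experiment, cells received 500 nM vemurafenib, which inhibits BRAF, together with 500 nM cobimetinib, which inhibits MEK (MAPKi), or DMSO alone, and were harvested after 24 h. In the Gln depletion experiment, cells were kept for 24 h without glutamine (Gln-depleted) or with 2 mM glutamine (CTRL). Each of the 4 groups had 3 libraries, and the cells of the MAPKi experiment were also grown with glutamine. The labels place the MAPKi and DMSO libraries in sequencing batch 2 and the others in sequencing batch 1, so the experiments were normalized apart and levels are not compared between them. Within the Gln depletion experiment, replicate 1 of both groups belongs to experimental batch 1 and replicates 2 and 3 to experimental batch 2.

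Between 31056296 and 40071368 reads were counted on genes per library, and values below are counts normalized by edgeR's TMM method. As a check of the labels, 6 of 6 targets of the MAPK pathway fell with MAPKi, with log2 fold changes of -9.55 (DUSP6) to -2.89 (CCND1), and CHAC1, TRIB3, DDIT3 and ASNS of the amino acid response rose with Gln depletion, by log2 fold changes of 2.67 to 3.29. Of 10 melanocyte and melanoma markers, SOX10, MITF and MCAM were at 1636 or more in every library. MLANA (1.97 to 182) and TYR (10.9 to 145) were low, and PRAME, a gene with a further row in the table, was at most 3.33. The markers did not move together: MITF had log2 fold changes of 0.77 with MAPKi and -2.38 with Gln depletion, and S100B of -2.15 and -0.40. Of 12 markers of other cell types, CD3E and KRT5 were at 0 in all libraries, PECAM1 and CDH5 reached at most 1.11, and PTPRC, VWF, PDGFRB and LUM were those that exceeded 10. Summed over the lists, the melanoma markers had 80890 to 82810 normalized counts with DMSO and 334300 to 415600 with MAPKi, where DCT held most of them, and 77830 to 79880 in CTRL against 60820 to 73660 in Gln-depleted libraries. The markers of other cell types had 898 to 1097 with DMSO, 1076 to 1192 with MAPKi, 641 to 1060 in CTRL and 547 to 556 in Gln-depleted libraries. The part of these shifts in the results was not tested. Less RNA per cell and fewer expressing cells cannot be told apart in these bulk libraries, and the normalization gives levels relative to the other genes of a library, not per cell.

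MAPKi lowered nearly the whole set. Over the 40 tested members whose symbol has no further row in the table, normalized counts summed to 201970, 214180 and 207620 in the DMSO libraries and to 136350, 141150 and 143160 in the MAPKi libraries, which did not overlap. Of the 48 members, 43 passed the limit of a mean normalized count of 10 and were tested. Among these, 38 fell and 1 rose, by the quasi-likelihood test of edgeR (an adjusted p, by Benjamini and Hochberg, of no more than 0.05), whereas 39.8% of the 12595 genes tested were lower and 38.4% were higher. The members that fell make up 88.4% of those tested. The median log2 fold change of the 43 was -0.64, against -0.01 for all genes tested. In 39 of the 43 each MAPKi library was below each DMSO library (90.7% of them, against 41.1% of all genes tested). When the test was made against a change of 1.5-fold, the fold limit of the study's methods, 18 members were lower (41.9%, against 18.8% of all genes) and 1 was higher (16.7% of all genes). In a fit of all 12 libraries together, 8 members were lower past this limit (18.6%, against 13.1% of all genes). With DESeq2, the tool of the study's methods, 13 members were lower past it and 1 was higher. The share of all genes was not counted for DESeq2.

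**Figure D1:**
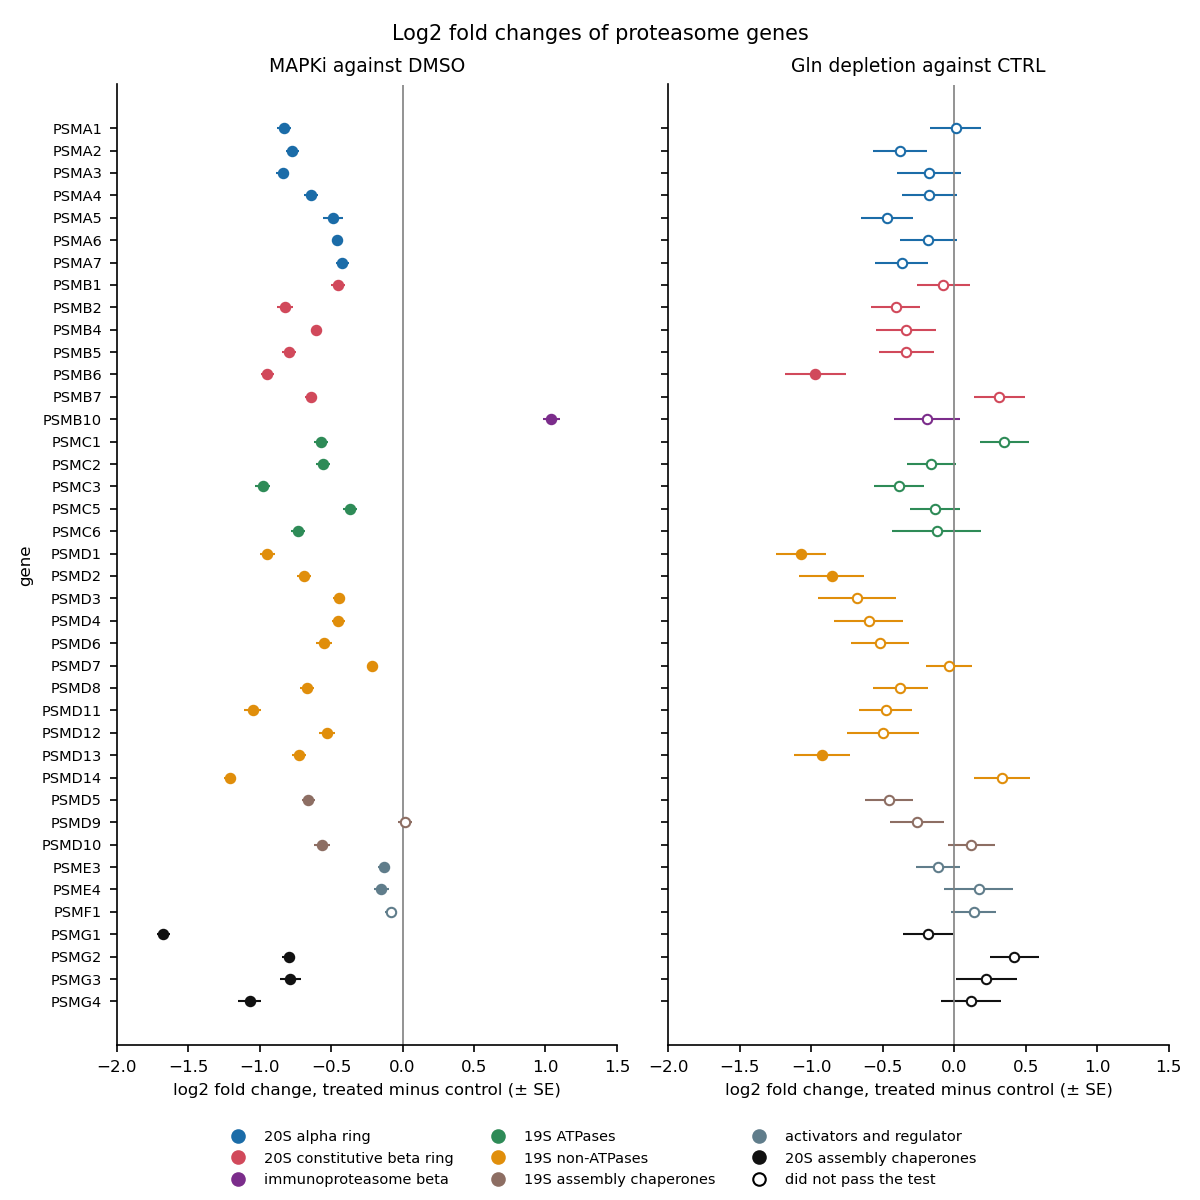
Log2 fold change (treated minus control, x axis) with its standard error for 40 proteasome genes (y axis), coloured by their place in the complex, with MAPKi on the left and Gln depletion on the right. Filled points passed edgeR's test against no change, which is 37 lower and 1 higher on the left (PSMB10) and 4 lower on the right (PSMB6, PSMD1, PSMD2 and PSMD13). Members with a further row in the table are left out.

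The chaperones that build the 20S core had the lowest median log2 fold change of the groups in which more than 1 gene was tested (-0.93), although PSMD14, PSMD11, PSMC3, PSMB6 and PSMD1 fell further than PSMG2 and PSMG3. Differences between the groups were not tested. PSMG1 and PSMG2 form a dimer that holds early alpha ring intermediates, and PSMG3 and PSMG4 form another that acts beside it. PSMG1 had normalized counts of 1793, 1884 and 1785 with DMSO and of 577, 567 and 568 with MAPKi, which leaves 31.4% of the DMSO mean. Its level was nearly the same in the 3 MAPKi libraries (571 ± 5.81, SD, n = 3), far from the DMSO libraries. The log2 fold change of -1.67 (SE 0.05, adjusted p = 2.16e-09, edgeR) was the largest fall of all members. PSMG4 went from 597, 613 and 678 to 294, 319 and 286, a log2 fold change of -1.07 (SE 0.08, adjusted p = 1.15e-06, edgeR). PSMG2 went from 1516, 1571 and 1559 to 855, 905 and 914, or -0.80 on the log2 scale (SE 0.05, adjusted p = 2.45e-07, edgeR). PSMG3 went from 1197, 1250 and 1096 to 624, 698 and 732, or -0.79 (SE 0.07, adjusted p = 5.97e-06, edgeR). All 4 were lower past the fold limit, beside 18.8% of all genes, with no overlap between groups (41.1% of all genes were lower in this way). No other group of the complex passed the limit with each of its tested members except the immunoproteasome group, of which 1 gene was tested. POMP, a chaperone of beta ring assembly whose symbol lies outside the naming rule, fell as well, from 5544, 6108 and 5765 to 3397, 3316 and 3606 (log2 fold change -0.75, SE 0.05, adjusted p = 6.63e-07, edgeR).

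The alpha ring fell as a whole. Its 7 subunits were all lower, beside 39.8% of all genes tested, and their median log2 fold change was -0.64. Of these, 3 were past the fold limit (42.9%, against 18.8% of all genes). Summed over the 7 genes, normalized counts were 34450, 36710 and 35340 with DMSO and 22890, 23890 and 24100 with MAPKi. PSMA3 went from 3278, 3506 and 3272 to 1861, 1846 and 1917 (log2 fold change -0.84, SE 0.04, adjusted p = 9.01e-08, edgeR). PSMA1 went from 3601, 3712 and 3737 to 1935, 2122 and 2156, a log2 fold change of -0.83 (SE 0.05). PSMA2 went from 4727, 5015 and 4986 to 2808, 2965 and 2857, a log2 fold change of -0.77 (SE 0.04). No alpha subunit overlapped between the groups, beside 41.1% of all genes with each MAPKi library below each DMSO library. The smallest fall was that of PSMA7, whose normalized count was 8290 ± 270 (SD, n = 3) with DMSO and 6196 ± 75.8 (SD, n = 3) with MAPKi (-0.42, SE 0.04, adjusted p = 1.17e-05, edgeR), and between it and PSMA2 stood PSMA4 (-0.64), PSMA5 (-0.49) and PSMA6 (-0.46). PSMA8, which is made in testis, had 0 reads in the MAPKi and DMSO libraries.

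Of the constitutive beta subunits, 6 were tested and 6 fell, 3 past the fold limit. The caspase-like site is carried by PSMB6, which went from 3121, 3346 and 3390 to 1676, 1682 and 1759 (log2 fold change -0.95, SE 0.05, adjusted p = 5.82e-08, edgeR). PSMB5, with the chymotrypsin-like site, went from 3609, 3884 and 3662 to 2030, 2193 and 2213 (-0.79, SE 0.05, adjusted p = 3.20e-07, edgeR). PSMB7, with the trypsin-like site, went from 4711, 4814 and 4619 to 2936, 3033 and 3084 (-0.64, SE 0.04, adjusted p = 3.84e-07, edgeR). All 3 catalytic subunits were thus lower in every MAPKi library, as were 41.1% of all genes tested. Among the structural subunits, PSMB2 went from 6749, 7340 and 6848 to 3691, 4075 and 4065 (-0.82, SE 0.06), while PSMB4 fell by 0.60 and PSMB1 by 0.45 on the log2 scale. PSMB3 is listed with 0 reads in all but 1 of the 12 libraries, and its further row is described below.

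In the 19S cap, 11 of 11 non-ATPase subunits and 5 of 6 ATPases fell, beside 39.8% of all genes tested. PSMD14, the deubiquitinase that strips ubiquitin from substrates, fell most of these. It had 4480, 4700 and 4664 normalized counts with DMSO and 1953, 2017 and 2028 with MAPKi, which leaves 43.3% of the DMSO mean (log2 fold change -1.21, SE 0.04, adjusted p = 6.06e-09, edgeR). Its partner in the lid, PSMD7, fell least, from 4112, 4152 and 4164 to 3565, 3652 and 3513 (-0.21, SE 0.04, adjusted p = 6.86e-04, edgeR). Both were separated between the groups, but the dimer partners kept 43.3% and 86.3% of their DMSO means, a contrast named after these values were seen.

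PSMD11, a lid subunit that braces the cap against the core, went from 6884, 7664 and 6976 to 3261, 3524 and 3628 (log2 fold change -1.05, SE 0.06, adjusted p = 1.52e-07, edgeR). PSMD1, a large scaffold of the base, went from 7781, 8695 and 8587 to 4282, 4278 and 4456 (-0.95, SE 0.05, adjusted p = 1.49e-07, edgeR). The other large scaffold, PSMD2, which docks ubiquitin carriers, went from 13450, 14030 and 14030 to 8211, 8755 and 8786 (-0.69, SE 0.05). These subunits kept between 48.4% and 62.0% of their DMSO means, and no library of a group entered the range of the other. The lid subunit PSMD13 went from 3657, 3954 and 3789 to 2228, 2273 and 2396 (-0.72, SE 0.05). PSMD8, also of the lid, went from 5908, 6177 and 6131 to 3646, 4010 and 3797 (-0.67, SE 0.05), close to the fold limit (adjusted p = 0.0445 against it, edgeR). The remaining non-ATPases fell by less than the limit could separate: PSMD6 (-0.55), PSMD12 (-0.53), PSMD4, a ubiquitin receptor (-0.45), and PSMD3 (-0.45).

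Among the ATPases, PSMC3 went from 4616, 5225 and 5084 to 2457, 2586 and 2536 (log2 fold change -0.98, SE 0.05, adjusted p = 1.35e-07, edgeR) and PSMC6 from 2973, 3156 and 3223 to 1782, 1894 and 1959 (-0.73, SE 0.05, adjusted p = 6.03e-07, edgeR). Both passed the fold limit. PSMC1 (-0.57), PSMC2 (-0.55) and PSMC5 (-0.37) fell by less. Differences in the size of the fall between the ATPases were not tested, and PSMC4, whose level is uncertain, is described below. Of the chaperones of the base, PSMD5 (-0.66) and PSMD10 (-0.56) fell, but PSMD9 had 1091, 1148 and 1091 with DMSO and 1086, 1167 and 1120 with MAPKi. Its groups overlapped (log2 fold change 0.02, SE 0.05, adjusted p = 0.748, edgeR).

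The activators PSME3 and PSME4 and the regulator PSMF1 moved little. PSME3, a nuclear activator, fell from 11080 ± 291 to 10110 ± 191 (SD, n = 3 each; log2 fold change -0.13, SE 0.04, adjusted p = 0.0181, edgeR). PSME4, another nuclear activator, fell from 9676 ± 334 to 8735 ± 385 (SD, n = 3 each; -0.15, SE 0.05, adjusted p = 0.0213, edgeR). PSMF1, an inhibitor of the core in vitro, was 3638 ± 47.8 and 3435 ± 88.8 (SD, n = 3 each) and did not pass the test (-0.08, SE 0.04, adjusted p = 0.0847, edgeR).

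**Figure D2:**
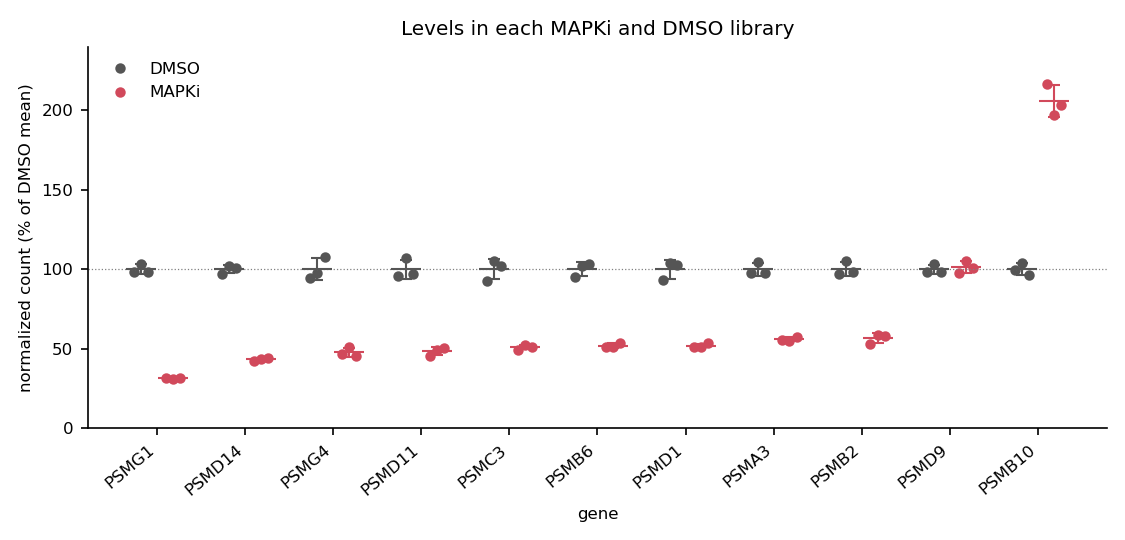
Normalized count of 11 proteasome genes (x axis) in each DMSO and MAPKi library, as a percentage of the DMSO mean of the gene (y axis, from 0). Points are libraries, horizontal marks the mean and bars the SD (n = 3). PSMG1 lies at 31.4% on average and PSMB10 at 206%, while the libraries of PSMD9 overlap.

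PSMB10 went the opposite way. This subunit carries the trypsin-like site of the immunoproteasome and takes the place of PSMB7. Its normalized counts were 557, 584 and 542 with DMSO and 1217, 1105 and 1142 with MAPKi, so that each MAPKi library was above each DMSO library (log2 fold change 1.04, SE 0.06, adjusted p = 1.55e-07, edgeR). It was the only member that rose, and it passed the fold limit (adjusted p = 1.28e-05, edgeR). Per kb of transcript (977 bases for PSMB10 and 984 for PSMB7), PSMB10 stood at 11.9%, 12.2% and 11.8% of the level of PSMB7 in the DMSO libraries and at 41.7%, 36.7% and 37.3% in the MAPKi libraries. PSMB7 thus remained the more abundant mRNA in all of these libraries. With Gln depletion, PSMB10 was 527 ± 101 in CTRL and 463 ± 83.2 in Gln-depleted libraries (SD, n = 3 each), which overlapped (log2 fold change -0.19, SE 0.23, adjusted p = 0.595, edgeR).

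**Figure D3:**
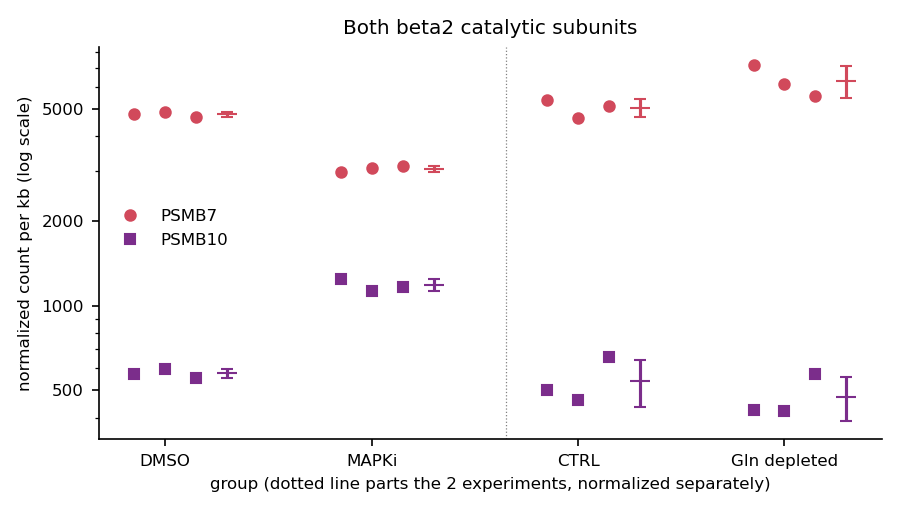
Normalized counts per kb of transcript (y axis, log scale) of PSMB7 (circles) and PSMB10 (squares) in each library of the 4 groups (x axis), with mean and SD (n = 3) to the right of the points. The distance between both genes is smallest with MAPKi, where PSMB10 stands at 36.7% to 41.7% of PSMB7. The dotted line separates the experiments, which were normalized apart.

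The other immunoproteasome subunits could not be followed in the same way. The row named PSMB8 had at most 7.76 normalized counts in the MAPKi experiment and 0 reads in the Gln depletion experiment, and PSMB9 had reads in a single library (22.4 in CTRL replicate 1). Both symbols have 7 further rows in the table. With the reads of these rows added, PSMB8 had 88.2, 83.3 and 81.3 with DMSO and 111, 97.9 and 83.0 with MAPKi, which did not pass the test (log2 fold change 0.21, SE 0.16, adjusted p = 0.257, edgeR), and PSMB9 stayed at or below 13.3 in that experiment. PSMB11 had at most 0.97.

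Further rows of the same symbol, which carry a number after it, also exist for PSMB3, PSMC4, PSME1 and PSME2, so the levels of 6 members are uncertain. PSMC4, an ATPase of the cap, had 31.3, 994 and 22.3 normalized counts with DMSO and 468, 27.7 and 16.8 with MAPKi. In the Gln depletion experiment it had 92.4, 4014 and 34.0 in CTRL and 94.8, 63.3 and 20.4 in Gln-depleted libraries. These replicates of a group thus spanned more than the difference between groups, and neither comparison passed the test (adjusted p = 0.51 and 0.0935, edgeR). PSME1 had 12.9, 856 and 11.6 with DMSO and 17.9, 8.87 and 2099 with MAPKi, so its log2 fold change of 1.28 (SE 1.63, adjusted p = 0.487, edgeR) rested on single libraries and became -4.43 without MAPKi replicate 3 and 5.85 without DMSO replicate 2. PSME2, which forms an activator ring with PSME1, was steadier, with 529, 685 and 589 against 294, 239 and 475, and fell (-0.83, SE 0.22, adjusted p = 0.00574, edgeR). PSMB3 had reads almost entirely on its further row. With these added it had 133, 100.1 and 95.8 with DMSO and 38.1, 55.6 and 65.4 with MAPKi (-1.05, SE 0.24, adjusted p = 0.00372, edgeR). How the reads were shared out among such rows was not tested.

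**Figure D4:**
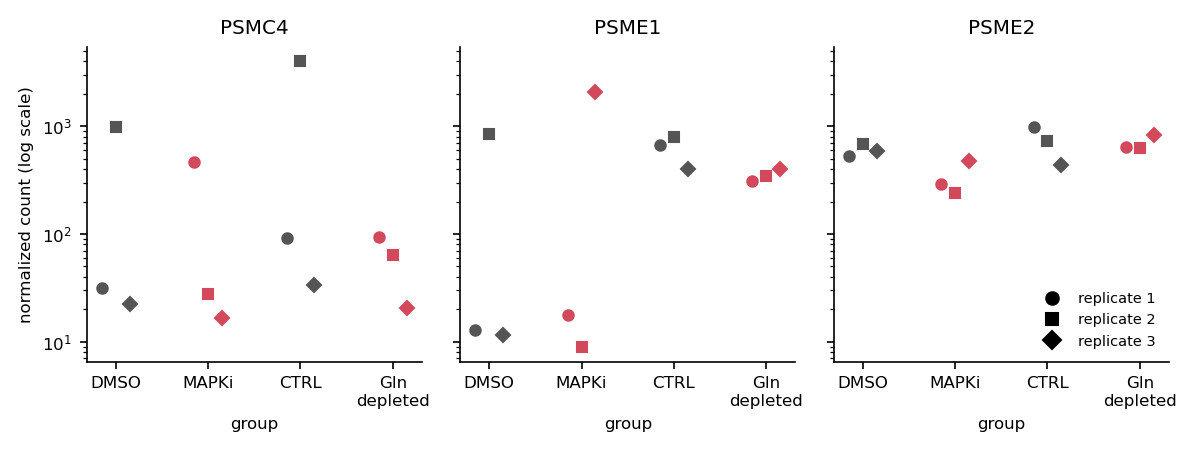
Normalized counts (y axis, log scale) of PSMC4, PSME1 and PSME2, whose symbols have further rows in the table, in each library of the 4 groups (x axis), with the symbol shape giving the replicate number. PSMC4 and PSME1 spread over more than a factor of 10 among the DMSO libraries (22.3 to 994 and 11.6 to 856), whereas the DMSO libraries of PSME2 lie between 529 and 685.

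The promoters of the set were searched for letters that are known binding motifs in this family. RefSeq windows of GRCh38.p14, from 250 bases before to 50 after the start, matched 42 of the 48 members by symbol, among 15451 windows of protein-coding genes. The core of the antioxidant response element, TGACNNNGC, which factors of the NFE2L1 family bind with small MAF partners, occurred on either strand in 13 of the 42 (31.0%, against 14.4% of all windows). The ETS motif CCGGAAG occurred in 13 (31.0%, against 14.4%), CCAAT in 19 (45.2%, against 36.5%) and CACGTG in 3 (7.14%, against 8.95%). Matches of different motifs did not overlap, while at PSMD14 the CCAAT matches on either strand overlapped each other. The following stretches are shown because they belong to members past the fold limit with MAPKi and hold such a match wholly upstream of the start, with the motif in capitals, PSMG1 and PSMG2 with TGACNNNGC and the others with CCGGAAG or its reverse complement, written 5′ to 3′ on the strand of the gene.
PSMG1 (chr21:39183611-39183649, minus strand): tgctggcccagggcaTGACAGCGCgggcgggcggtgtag
PSMG2 (chr18:12658684-12658722, plus strand): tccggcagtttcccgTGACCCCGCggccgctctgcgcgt
PSMC6 (chr14:52707078-52707114, plus strand): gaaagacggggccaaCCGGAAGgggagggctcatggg
PSMD13 (chr11:236949-236975, plus strand): ccgcgccgctcggcgCCGGAAGtgagt
PSMD8 (chr19:38374539-38374570, plus strand): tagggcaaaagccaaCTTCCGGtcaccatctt
PSMG4 (chr6:3258888-3258924, plus strand): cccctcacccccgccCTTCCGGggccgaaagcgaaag

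Among the tested members with a window and without further rows, the median log2 fold change with MAPKi was -0.60 for the 8 with TGACNNNGC and -0.65 for the 26 without it. For CCGGAAG it was -0.56 (12 members) and -0.67 (22 members). For CCAAT it was -0.62 (16 members) and -0.65 (18 members), and for CACGTG -0.06 (2 members, PSMD9 and PSME3) and -0.67 (32 members). With Gln depletion the medians with and without the motif were -0.36 and -0.18 for TGACNNNGC, -0.14 and -0.26 for CCGGAAG, -0.26 and -0.19 for CCAAT, and -0.19 and -0.19 for CACGTG. No difference was tested.

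The genes that work with the proteasome moved less uniformly with MAPKi. Of 44 tested genes in 4 lists, 25 fell (56.8%) and 11 rose (25.0%, edgeR, adjusted p of at most 0.05), beside 39.8% and 38.4% of all genes tested. Of 11 factors that bind or help build the complex, 8 fell and 1 rose. UCHL5, a deubiquitinase of the cap, went from 4069, 4234 and 3969 to 1760, 1777 and 1762 (log2 fold change -1.21, SE 0.04), and ZFAND5, an activator of the complex, rose from 5120, 5087 and 4932 to 8428, 8706 and 8825 (0.78, SE 0.04). Of 14 genes for ubiquitin, its activating enzymes, shuttles and the segregase, 10 fell and 1 rose. Among those that fell were UBA6 (-0.83), an activating enzyme, and RAD23B (-0.73), which carries ubiquitinated proteins to the cap. Of 11 regulators of proteasome transcription, 6 fell (54.5%) and 3 rose (27.3%). NFE2L1 itself rose, from 19120, 17340 and 18110 to 25530, 22220 and 22050 (0.36, SE 0.07, adjusted p = 7.25e-04, edgeR), while its partner MAFF (-1.17) and NFYB, a subunit of the CCAAT-binding factor (-0.69), fell. Of the other subunits of that factor, NFYC rose (0.42) and NFYA did not pass the test (-0.05, adjusted p = 0.465, edgeR). Of the other small MAF partners, MAFG fell by less (-0.14) and MAFK did not pass (-0.03, adjusted p = 0.658, edgeR). HSF1 is counted among those that fell, but has a further row and rests on 214 counts in DMSO replicate 1, with at most 1.11 in the other 5 libraries.

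Antigen processing genes, with which PSMB8, PSMB9 and PSMB10 are often induced, mostly rose. Of 12 genes, 8 were tested, 6 rose (75.0%, against 38.4% of all genes tested) and 1 fell (12.5%, against 39.8%). NLRC5, an activator of MHC class I genes, rose from 330.1, 300.0 and 334 to 828, 874 and 869 (log2 fold change 1.42, SE 0.07, adjusted p = 4.80e-08, edgeR), and ERAP1, which trims peptides, had a log2 fold change of 1.03 (SE 0.06). The gene counted as lower, TAPBP, has further rows and rests on DMSO replicate 3 (295, with at most 5.96 in the other 5 libraries). IRF1, an inducer of the immunoproteasome, was 204 ± 9.86 and 218 ± 18.3 (SD, n = 3 each) and did not pass the test (0.10, SE 0.10, adjusted p = 0.383, edgeR).

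Gln depletion changed few members without the replicate block, and more with it. The 40 members without further rows summed to 230870, 214500 and 224880 normalized counts in CTRL and to 200550, 179890 and 173260 in Gln-depleted libraries, without overlap. Of 43 tested members, 4 fell and 0 rose by the quasi-likelihood test of edgeR. This is 9.30% of them, near the 9.64% of all 12512 genes tested that were lower, and 8.79% of all genes were higher. With the replicate number fitted as a block, described below, the members that fell stood above the share of all genes and those that rose below it. At an unadjusted p under 0.05, 13 members were lower and 1 was higher, and DESeq2 called 5 lower and 0 higher. The share of all genes was not counted for either. The median log2 fold change was -0.19, against -0.03 for all genes tested, but it lay between -0.35 (without Gln-depleted replicate 1) and -0.23 when single libraries were left out. In addition, 15 members (34.9%, against 22.1% of all genes) were lower in each Gln-depleted library than in each CTRL library. No member passed the fold limit, which 5.58% of all genes passed in either direction. At an unadjusted p under 0.05 against that limit, 5 were lower and 0 higher, and DESeq2 called 0 in either direction. For these counts too, the share of all genes was not counted.

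The members that fell were 3 cap subunits and a catalytic subunit. PSMD1 had 7954, 7651 and 7312 normalized counts in CTRL and 4175, 3424 and 3296 in Gln-depleted libraries, which leaves 47.6% of the CTRL mean (log2 fold change -1.07, SE 0.17, adjusted p = 0.0078, edgeR). PSMB6 went from 3222, 2655 and 3292 to 1669, 1200 and 1803 (-0.97, SE 0.21, adjusted p = 0.0201, edgeR). PSMD13 went from 4389, 3200 and 3961 to 2311, 1781 and 1985 (-0.93, SE 0.20, adjusted p = 0.0187, edgeR). None of these overlapped between the groups. PSMD2, named here because the count is small, went from 18120, 12800 and 13480 to 10230, 7017 and 7257 (-0.86, SE 0.23, adjusted p = 0.0376, edgeR). In replicate 1 of both groups PSMD2 was higher than in the other replicates. The count of members that fell depended on single libraries. It was 7 without Gln-depleted replicate 1, 1 without Gln-depleted replicate 2, and 2 without Gln-depleted replicate 3 or without CTRL replicate 3. PSMB6 did not pass without Gln-depleted replicate 2 (adjusted p = 0.0751, edgeR) or CTRL replicate 3 (adjusted p = 0.0739, edgeR). PSMD13 did not pass without either of these (adjusted p = 0.0836 and 0.0667), without Gln-depleted replicate 3 (0.0627) or without CTRL replicate 1 (0.0528, all edgeR).

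Since same-numbered Gln-depleted and CTRL libraries deviated together, the replicate number was also fitted as a block. With the block, 17 members fell (39.5%, against 25.0% of all genes tested) and 2 rose (4.65%, against 24.0%), by the same test of edgeR. Non-ATPase subunits of the cap made up 8 of the 17, out of 11 tested: besides PSMD1, PSMD2 and PSMD13 these were PSMD3 (-0.72), PSMD4 (-0.62), PSMD6 (-0.54), PSMD11 (-0.49) and PSMD8 (-0.39), on the log2 scale with the block. Their sum over all 11 genes was 82200, 72690 and 76010 in CTRL and 62390, 50120 and 46240 in Gln-depleted libraries. Of the beta ring, PSMB2 (-0.41), PSMB4 (-0.34) and PSMB5 (-0.34) fell beside PSMB6 (-0.99). Of the alpha ring, PSMA5 (-0.48) and PSMA7 (-0.38) fell. The others were PSMC3 (-0.39), PSMD5 (-0.46) and PSME1 (-0.77), the last with a further row in the table. Within experimental batch 2, which holds replicates 2 and 3, 11 members fell (25.6%, against 17.0% of all genes) and 1 rose (2.33%, against 17.9%); batch 1 holds a single library per group and gives no test.

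The members that rose with the block were an ATPase and a chaperone. PSMC1 had 4699, 5069 and 5045 in CTRL and 6320, 7069 and 5481 in Gln-depleted libraries (log2 fold change 0.34 with the block, SE 0.12, adjusted p = 0.0459, edgeR). PSMG2 had 1796, 1538 and 1507 against 2018, 2335 and 2120 (0.42, SE 0.13, adjusted p = 0.0276, edgeR). Each Gln-depleted library was above each CTRL library for both. Neither passed without the block (adjusted p = 0.189 and 0.125, edgeR). The 4 chaperones of 20S assembly summed to 5993, 6238 and 6378 in CTRL and to 6102, 6803 and 7557 in Gln-depleted libraries, which overlapped. PSMG1, PSMG3 and PSMG4 did not pass with the block (adjusted p = 0.238, 0.223 and 0.601, edgeR), and PSMD14, at 3978, 5206 and 4727 against 5683, 6842 and 5021, did not either (0.33, SE 0.12, adjusted p = 0.0569, edgeR).

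Around the complex, 0 of 43 tested associated genes fell with Gln depletion and 6 rose (edgeR, adjusted p of at most 0.05), beside 9.64% and 8.79% of all genes. At an unadjusted p under 0.05, 5 were lower, and DESeq2 called 2 lower, without a count of the share of all genes. With the replicate block, 8 fell (18.6%) and 12 rose (27.9%), near the 25.0% and 24.0% of all genes. AKIRIN2, which helps import the proteasome into the nucleus, rose from 1483, 1435 and 1506 to 2775, 2923 and 2738 (log2 fold change 0.93, SE 0.16, adjusted p = 0.00905, edgeR). Of the transcription list, MAFG (1.17, SE 0.17), NFE2L2 (1.12, SE 0.32), MAFF (1.09, SE 0.19) and NFYA (0.77, SE 0.21) rose. NFE2L1 had 25470, 20700 and 17090 in CTRL and 41440, 30990 and 25150 in Gln-depleted libraries, which overlapped, and passed only with the block (0.63, SE 0.24, adjusted p = 0.107 without it and 0.00267 with it, edgeR). ERAP1 was the antigen processing gene that rose without the block (0.82, SE 0.23). NLRC5, with -0.68 (SE 0.29), passed as lower only with the block (adjusted p = 0.14 without it and 0.0141 with it, edgeR).

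The response of the set to MAPKi was compared directly with that to Gln depletion, as the difference between both log2 fold changes over the 12 libraries. It was tested for 43 members, of which 11 were lower with MAPKi (25.6%, against 20.9% of all 12627 genes tested) and 1 was higher (2.33%, against 19.6%). With the replicate block, 22 were lower (51.2%, against 32.1%) and 1 was higher (2.33%, against 29.0%). The 11 included all 4 chaperones of 20S assembly and PSMD14. PSMD14 had the largest difference (-1.52, SE 0.17, adjusted p = 3.90e-05, edgeR), then PSMG1 (-1.47, SE 0.16, adjusted p = 2.78e-05, edgeR), PSMG2 (-1.18, SE 0.16), PSMG4 (-1.16, SE 0.21) and PSMG3 (-0.98, SE 0.21). PSMB7 (-0.93), PSMC1 (-0.89), PSMA1 (-0.81), PSMD10 (-0.66), PSMA3 (-0.64) and PSMC3 (-0.56) were the others. PSMB10 was the member whose difference was higher (1.26, SE 0.23, adjusted p = 0.00122, edgeR). The spread was estimated over all 12 libraries together, although PSMG1 varied less in the MAPKi experiment. Its SE was 0.05 with MAPKi and 0.17 with Gln depletion alone, above the 0.16 of the difference. The SEs and adjusted p of such differences can therefore be too small, and the calls too many.

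For the 4 subunits that fell with Gln depletion without the block, the differences did not pass the test. They were 0.05 (SE 0.23) for PSMB6, 0.15 (SE 0.17) for PSMD1, 0.20 (SE 0.26) for PSMD2 and 0.23 (SE 0.22) for PSMD13 (adjusted p from 0.422 to 0.871, edgeR). With the block these did not pass either, at adjusted p of 0.0631 for PSMD2, 0.0679 for PSMD13, 0.183 for PSMD1 and 0.586 for PSMB6 (edgeR). Differences that did not pass do not show that the falls were equal. Of the 17 that fell with the block, PSMC3 differed as given above, and PSMB2, PSMB4, PSMB5, PSMD8 and PSMD11 differed with the block (-0.53 to -0.24, adjusted p from 0.00337 to 0.0454, edgeR), all with the larger fall with MAPKi. Across the 40 members without further rows, the log2 fold changes of both experiments were hardly related (Pearson's r = 0.0855, Spearman's rho = 0.0908). The points are genes that share libraries, so this is a description and not a test.

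**Figure D5:**
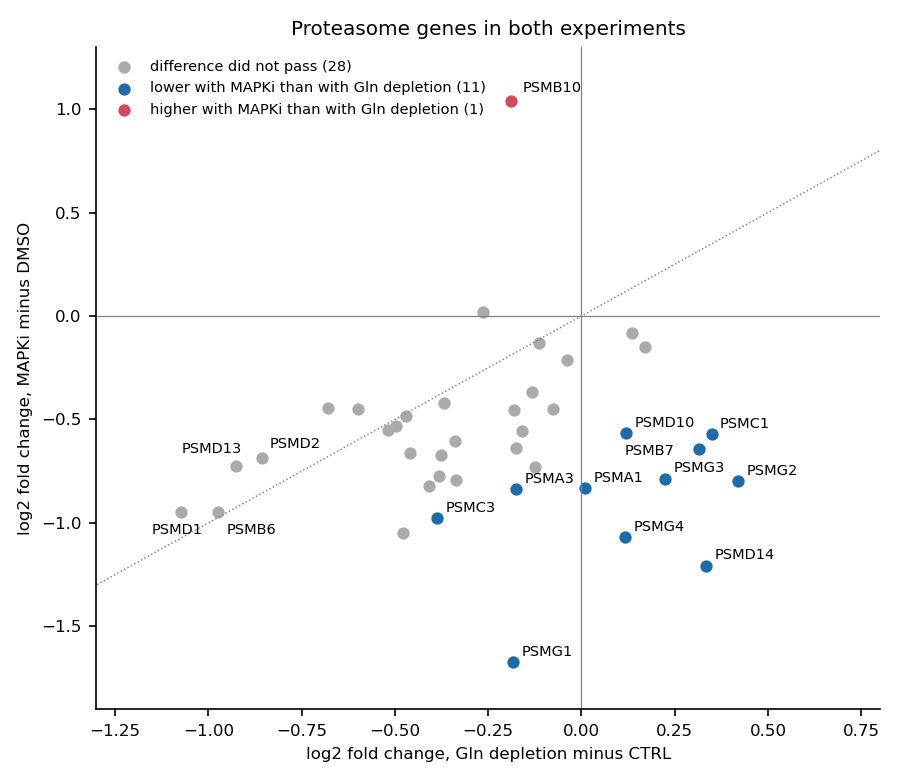
Log2 fold change of 40 proteasome genes with Gln depletion (x axis) and with MAPKi (y axis), coloured by edgeR's test of the difference between both. The dotted line marks equal changes. PSMD1, PSMB6, PSMD13 and PSMD2 lie near it, PSMD14 and the PSMG genes lie below it at log2 fold changes of -0.18 to 0.42 with Gln depletion, and PSMB10 stands alone at the top.

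As the study dealt with amino acid composition, that of the encoded proteins was set beside the changes. The study compared single amino acids and codons between sets of regulated mRNAs, and also measured mRNA decay, ribosome positions and intracellular amino acid concentrations. It further depleted EPRS1 and CTU2, enzymes that act on tRNAs. The pooled measures here do not repeat its comparison of single amino acids and codons. In the 40 members, aspartate and glutamate together made up a median of 13.3% of residues (9.02% to 16.8%), against 11.9% in the 12467 proteins tested with MAPKi, and lysine 6.50% against 5.74%. Codons ending in A or T made up a median of 47.1% in the members and 41.4% in all, and coding GC content was 47.4% against 52.0%. Among the members, the relation of these measures to the log2 fold change with MAPKi had a Spearman's rho of 0.247 for aspartate and glutamate, 0.0907 for lysine, -0.219 for codons ending in A or T and 0.144 for GC content (40 genes from the same libraries, given without a test). Pearson's r was 0.0504, 0.0011, -0.26 and 0.294 in that order. Over all genes tested, the rho was -0.102, -0.164, -0.108 and 0.0997 in that order. With Gln depletion, the rho among the members was -0.191, 0.101, 0.161 and -0.18 in the same order.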

How the data were processed

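RNA-seq libraries of A375 cells were prepared after rRNA depletion; the labels name cytoplasmic RNA, whereas the methods speak of total RNA. The authors trimmed reads with fastp 0.20.1, aligned them to GRCh38.p13 with HISAT2 2.2.1, counted those on exons with HTSeq 0.13.5 and deposited raw read counts for 44659 genes; the strand setting is not given in the sources used here. If strand was not used, reads of PSMA3 and PSMG3 cannot be told apart from those of PSMA3-AS1 and PSMG3-AS1. All 12 value columns were used. Groups were taken from the sample titles. Nothing in the labels says that MAPKi and DMSO replicates came from separate cultures, so their p-values measure the spread between these samples.

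Counts were analysed in R 4.3.3 with edgeR 4.0.16 (TMM, quasi-likelihood fit of treatment alone). Tested were protein-coding genes whose normalized counts averaged 10 or more in an experiment, without the 5082 further rows of a symbol. P-values were adjusted over all genes tested by Benjamini-Hochberg, and calls made at 0.05, against no change or (glmTreat) a change of 1.5-fold. DESeq2 1.42.0, the tool of the study's methods, was an alternative. The procedure was tested on simulated data.

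Replicate numbers were checked by the correlation, across genes, of deviations from the group mean: same-numbered libraries gave 0.585, 0.44 and 0.386 with Gln depletion, where labels also name experimental batches. The block is therefore given beside these results.

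Members were matched by symbol. Full values are given for the 3 largest rises and falls among members past the test, members past the fold limit, and PSMB8, PSMB9, PSMB10, PSME1 and PSME2; up to 3 genes with the largest change are named per associated list, and NFE2L1. Some genes under this rule are not reported here. Other members, and NFYA, NFYC, MAFK, IRF1 and (with MAPKi) MAFG, were named after their values were seen. The members and lists were chosen with earlier results of these data known. Coding sequences and transcript lengths were those of MANE Select in GENCODE 44, and promoters those of RefSeq. Python 3.11.15 with pandas 2.3.3 and matplotlib 3.10.9 was used for tables and figures.

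The alternatives tried were size factors of DESeq2 in edgeR, the test of DESeq2, no count limit or a mean of at least 100, all genes of the table, an adjusted p of 0.01, a fit of 12 libraries, the replicate block, a correction for GC content (5 degrees of freedom), both of these, further rows added, each library left out in turn, and experimental batch 2 alone. Leaving out members with further rows was added after seeing the data.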

Additional observations from a re-analysis of the deposited data

Results flagged for a closer look

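The results below come from rows of the table that the main comparisons leave out (further rows were added above only as an alternative), and are listed because the mean of the treated libraries exceeded every control library. PSMA3-AS1, an antisense gene at PSMA3, had 425, 447 and 490 normalized counts with DMSO and 678, 748 and 699 with MAPKi (mean 708), and 248, 541 and 574 in CTRL and 532, 1376 and 1093 in Gln-depleted libraries (mean 1000). PSMG3-AS1, an antisense gene at PSMG3, had 53.9, 61.0 and 66.8 with DMSO and 143, 154 and 151 with MAPKi (mean 149), and 42.2 to 78.8 in CTRL and 135, 65.3 and 102 in Gln-depleted libraries (mean 101). The Gln-depleted libraries overlapped the CTRL libraries for both. Whether reads of the sense genes enter these values was not tested.

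Further rows of PSMB8 and PSMB3 were listed for the same reason. The PSMB8 row that holds most of its reads had 87.4, 81.0 and 81.3 with DMSO and 109, 88.7 and 80.4 with MAPKi (mean 92.8), which overlapped. The further row of PSMB3 had a mean of 958 in the Gln-depleted libraries, which rested on replicate 1 alone (2736, against 69.2 and 69.5 in the others and 127 to 227 in CTRL).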

How the results depend on the processing

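The lowest value of a tested member without further rows was 286 normalized counts (PSMG4), and each group had 3 libraries. Causes of the shifts below were not tested.

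With MAPKi, the counts of members that fell (36 to 40 when each library was left out) and rose kept within 1.5 times the values given under every alternative run. The count past the fold limit was 8 lower in the fit of 12 libraries and 13 with DESeq2. It was 15 with the GC correction, also with the replicate block added, and 16 to 18 with a library left out. The median log2 fold change was -0.59 without a count limit, where 48 members enter, -0.56 with the GC correction, -0.55 with GC correction and replicate block, and -0.66 to -0.60 with a library left out. PSME1 lay between -4.43 and 5.85 with a library left out.

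With Gln depletion, 1 member fell at an adjusted p of 0.01, 15 fell and 3 rose in the fit of 12 libraries, 17 and 2 with the replicate block, 18 and 1 with GC correction and replicate block, and 11 and 1 within experimental batch 2; leaving out a library gave 1 to 7 lower. Past the fold limit the same 4 fits gave 3, 4, 3 and 1 lower, and a library left out 0 to 1. The median was -0.30 without a count limit, -0.29 within batch 2 and -0.35 to -0.23 with a library left out. PSME2 changed sign to 0.0018 with DESeq2's size factors and with DESeq2, 0.0055 with all genes of the table, 0.021 with the replicate block, 0.023 with the GC correction, 0.063 with both and 0.35 within batch 2, and lay between -0.29 and 0.31 with a library left out. Associated genes gave 2 lower with DESeq2, and 8 lower and 12 higher with the replicate block.

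For the difference between the experiments, 22 members were lower with the replicate block, 17 lower and 3 higher with GC correction and replicate block, and 9 to 15 lower and 1 to 2 higher with a library left out. In the MAPKi experiment, where same-numbered libraries correlated by no more than 0.0687 (though each correlated best with its own number), the replicate block gave 38 lower and 1 higher. Over all values and alternatives run, 643 kept their direction and side of the threshold or stayed close, 33 moved further, 11 changed sign, 8 no longer passed and 4 newly passed.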
